A study of Mus musculus with 14 samples.

Results

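Of the 1229 SIM2 binding sites found in mouse embryonic stem (ES) cells, 205 (16.7%) lay at no peak of NANOG, OCT4 or the Mediator subunits MED1 and MED12. These cofactor-free sites were chosen by peak calls: SIM2 peaks of the clones A6, B8 and C4 with centres within 100 bp were merged, sites of at least 2 clones without a peak of the EB3 control were kept, and sites with none of the 4 other factors within 100 bp were selected. Each site is the 100 bp around the mean peak centre, in mm9 coordinates. The other 1024 SIM2 sites, with at least 1 of these factors, served for comparison, and of these 362 had NANOG alone.

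All cells came from the EBRTcH3 (EB3) ES line, whose ROSA-TET system switches a transgene on when tetracycline is withdrawn. A6, B8 and C4 are each a single clone with a FLAG-tagged mouse Sim2 transgene driven by a modified human CMV promoter, and the EB3 parental line lacks it. All were grown for 26 h without tetracycline, so the SIM2 protein was overexpressed. FLAG ChIP-seq was done once in each line, and NANOG, OCT4, MED1 and MED12 ChIP-seq once each in clone A6 alone. Whether a site was free of cofactors in B8 or C4 was therefore not measured.

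SIM2 is a basic helix-loop-helix PAS (bHLH-PAS) transcription factor that binds DNA as a dimer with ARNT, at short elements with the core ACGTG, known as the central midline element (CME) in its longer form TACGTG. The related AHR-ARNT dimer binds a core of GCGTG. NANOG and OCT4 are core factors of the pluripotent state and occupy enhancers in ES cells, where Mediator, the large complex that joins transcription factors to RNA polymerase II, also gathers. Cofactor-free here means only that no NANOG, OCT4, MED1 or MED12 peak was called at the site, and SOX2, which the study also profiled, was not analysed here.

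The sequences of 17 cofactor-free sites are shown, among them the 5 strongest in all 3 clones and those with the CME in their 100 bp. Sites linked by published chromatin contacts to a gene whose expression changed are also shown, except those near Zfp532. The Ripk3 site was added as the one closest to the start of such a gene. The sequences are the plus strand of mm9 from the 5′ end, and capitals mark, on either strand, the core ACGTG or its longer form TACGTG, the AHR-type core GCGTG, the extended core CGTGAC, the first octamer bases ATGCAAA (bound by OCT4) and the ESRRB motif AAGGTCA. The unprinted sites near changed Bhlhe40, Adcy6, 6430527G18Rik, Parvb, Spsb4, Nkx6-3, Cln6, AI854517 and Grik3 held none of these motifs in their 100 bp. The unprinted Triobp and Car3 sites held ACGTG and GCGTG. The first 5 are the strongest sites by mean rank in the clones, and only the 4931429P17Rik and Tcfap2c sites hold ACGTG, while the Ppap2a site holds GCGTG.
Ppap2a upstream, chr13:113561108-113561207: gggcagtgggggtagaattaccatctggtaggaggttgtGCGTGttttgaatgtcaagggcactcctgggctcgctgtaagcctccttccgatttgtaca
Zfp7 promoter, chr15:76709490-76709589: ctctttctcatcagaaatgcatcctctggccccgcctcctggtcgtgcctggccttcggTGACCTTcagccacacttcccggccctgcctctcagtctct
Tmem40 upstream, chr6:115714481-115714580: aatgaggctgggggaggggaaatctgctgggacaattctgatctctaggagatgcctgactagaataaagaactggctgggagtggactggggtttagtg
4931429P17Rik intergenic, chr13:47843242-47843341: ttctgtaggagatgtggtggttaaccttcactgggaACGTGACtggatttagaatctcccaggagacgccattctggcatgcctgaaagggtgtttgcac
Tcfap2c intergenic, chr2:172561275-172561374: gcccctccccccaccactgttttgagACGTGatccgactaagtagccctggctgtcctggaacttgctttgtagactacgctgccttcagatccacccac
Fyn intron, chr10:39254397-39254496: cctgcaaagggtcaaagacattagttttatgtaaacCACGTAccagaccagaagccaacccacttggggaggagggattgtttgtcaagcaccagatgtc
Rbfox1 intron, chr16:7404998-7405097: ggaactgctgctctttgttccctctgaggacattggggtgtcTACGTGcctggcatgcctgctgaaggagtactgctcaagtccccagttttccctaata
Sox2 downstream, chr3:34659438-34659537: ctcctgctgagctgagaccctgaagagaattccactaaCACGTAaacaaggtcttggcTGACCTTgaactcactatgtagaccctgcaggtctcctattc
Plod3 promoter, chr5:137462809-137462908: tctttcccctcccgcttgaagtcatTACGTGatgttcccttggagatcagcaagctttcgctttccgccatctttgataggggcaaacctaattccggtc
Syngr1-linked intergenic, chr15:80049840-80049939: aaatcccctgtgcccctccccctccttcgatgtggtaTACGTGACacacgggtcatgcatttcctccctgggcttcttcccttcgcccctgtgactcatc
Lsm5 intergenic, chr6:56527738-56527837: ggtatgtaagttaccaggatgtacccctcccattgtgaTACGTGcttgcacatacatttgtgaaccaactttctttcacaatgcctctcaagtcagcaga
C130039O16Rik intron, chr12:85515911-85516010: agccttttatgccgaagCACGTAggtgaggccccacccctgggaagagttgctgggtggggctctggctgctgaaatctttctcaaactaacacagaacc
Lypd4 intergenic, chr7:25635935-25636034: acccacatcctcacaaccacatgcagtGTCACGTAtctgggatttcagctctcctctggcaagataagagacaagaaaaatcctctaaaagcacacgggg
Fnbp1 intron, chr2:30916414-30916513: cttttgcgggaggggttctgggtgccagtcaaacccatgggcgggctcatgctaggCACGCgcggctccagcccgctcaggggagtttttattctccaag
Jdp2 intron, chr12:86961128-86961227: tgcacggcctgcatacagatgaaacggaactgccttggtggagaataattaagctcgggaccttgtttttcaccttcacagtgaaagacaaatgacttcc
Otx2 intergenic, chr14:49274819-49274918: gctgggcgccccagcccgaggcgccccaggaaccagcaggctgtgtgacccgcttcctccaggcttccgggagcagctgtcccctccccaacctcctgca
Ripk3 promoter, chr14:56407715-56407814: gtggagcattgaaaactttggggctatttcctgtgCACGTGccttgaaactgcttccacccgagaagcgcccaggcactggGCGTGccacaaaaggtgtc

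The equal steps between normalized tag counts corresponded to 23.3 M tags for A6, 14.7 M tags for B8 and 13.6 M tags for C4 (M, mega), on a scale of 10 M tags. The A6, B8 and C4 lists held 2387, 2137 and 631 peaks, and the cofactor lists ranged from 762 peaks for MED1 to 14815 for NANOG. Both NANOG and OCT4 had a peak within 10 kb of Nanog, of Pou5f1 and of Sox2, the genes that mark pluripotent cells. The region of chromosome 14 from 70 to 110 Mb held 12.4% of the C4 peaks and 13.0% of the MED1 peaks but 2.14% of the A6 peaks. It held 3 of the 205 cofactor-free sites, among them the promoter site of Pcdh17, and 25 of the others.

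Most cofactor-free sites were shared by A6 and B8 alone. They were 163 of 205 (79.5%), with 6 in A6 and C4, 2 in B8 and C4 and 34 in all 3 clones. Sites of A6 and B8 alone were also most of the other sites (65.0%) and of those with NANOG alone (72.7%). The share in all 3 clones was 16.6% (95% Wilson interval 12.1 to 22.3%) among cofactor-free sites, 30.5% among the other sites and 28.2% over all sites. It was 23.5% among sites with NANOG alone, and there the interval of the difference included 0 (-13.3 to 0.11). This support is a property of the same peak calls that chose the sites, and is given as a description.

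SIM2 tag counts, which also come from those libraries, were slightly lower at cofactor-free sites than at the other sites in A6 and B8. Tag counts are compared only within a clone, because the peak lists of the clones do not share 1 scale. The median normalized tag count in A6 was 12.0 (quartiles 10.3 and 15.7) at 203 cofactor-free sites and 13.3 (10.7 and 17.6) at the others. In B8 the medians were 4.80 and 5.40, and in C4 both were 5.10. The ranges overlapped almost wholly, as the plot of tag counts by clone shows. Sites with NANOG alone had medians of 12.4 in A6 (quartiles 10.3 and 15.4), 5.40 in B8 and 5.10 in C4. Their median fold over input equalled that of the cofactor-free sites in A6 (7.9) and B8 (5.96). In C4 it was 5.88 against 5.445 at the cofactor-free sites. The focus ratio, the fraction of tags on the strand and side of the peak centre where a sharp site puts them, was higher at cofactor-free sites in each clone. Its medians were 0.794 against 0.731 in A6, 0.791 against 0.750 in B8 and 0.800 against 0.765 in C4. The Spearman rho of tag counts between A6 and B8 was 0.30 over 197 cofactor-free and 0.54 over 978 other sites. Between A6 and C4 it was 0.49 over 40 and 0.54 over 347 sites, and between B8 and C4 -0.03 over 36 and 0.38 over 323, all described with no test.

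**Figure D1:**
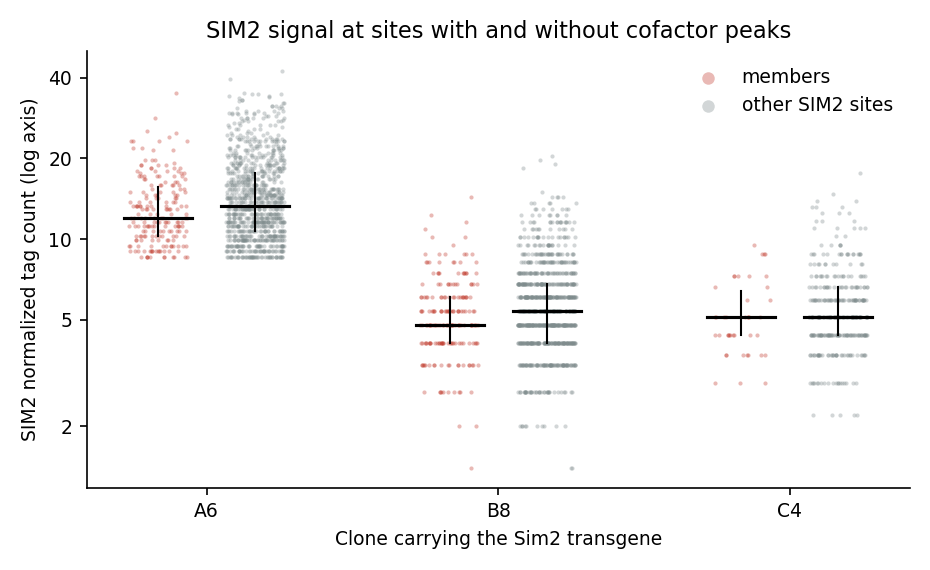
SIM2 normalized tag count (log axis) in clones A6, B8 and C4 at the sites without cofactor peaks (members, red) and the other SIM2 sites (grey); points are sites, bars medians, vertical lines quartiles. The medians are 12.0 and 13.3 in A6, 4.80 and 5.40 in B8 and 5.10 in both groups of C4.

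The strongest cofactor-free site lay 29945 bp upstream of Ppap2a, which encodes a lipid phosphate phosphatase. Its normalized tag counts were 35.2 in A6, 14.3 in B8 and 9.5 in C4, or 20.9, 14.9 and 10.9 times the input. Its nearest cofactor peak, of OCT4, was 146 bp away, so it was also among the 5 closest to the 100 bp limit. Next came the site 150 bp upstream of the start of Zfp7, a zinc finger gene, with 24.9, 11.6 and 8.8 in the clones. A site 2046 bp upstream of Tmem40, a transmembrane protein gene, had 24.0, 10.2 and 8.8. The Fyn site, in the intron of the gene of a Src family kinase 1370 bp from a start, had 28.3, 6.8 and 6.6, and it was the strongest with a CME. Sites in Tubb2b, a neuronal beta tubulin gene, and at the promoter of Rgs3, a regulator of G protein signalling, had 23.2 each in A6 and 6.1 each in B8, above the median of their group in both clones. The 10 strongest sites also included intergenic ones nearest to 4931429P17Rik, to Tcfap2c, to Zfp532 and to Skap2, whose mean percentiles over the clones were lower than those of Ppap2a and Zfp7.

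Cofactor-free sites lay at promoters more often than the other SIM2 sites. A promoter was taken as 1 kb upstream to 300 bp downstream of a start of a protein-coding gene, which held 23 of 205 cofactor-free sites (11.2%, interval 7.59 to 16.3%), 33 of 1024 others (3.22%) and 4.56% of all SIM2 sites. The difference was 8.0 percentage points, with a 95% Newcombe interval of 4.16 to 13.1. Of the 362 sites with NANOG alone 2.76% were at promoters (difference 8.46 points, 4.19 to 13.7), and of the NANOG peaks without SIM2 3.56% were. Of the 81 FLAG peaks of the EB3 control 7 were at promoters (8.64%, interval 4.25 to 16.8%), which overlaps the interval of the cofactor-free sites. The share was higher among the sites supported by all 3 clones, with 7 of 34 cofactor-free sites against 5 of 312 others. All intervals of shares cover counting error only, treat sites as independent and were not adjusted for the number of features compared.

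Intergenic positions held 103 cofactor-free sites (50.2%) against 58.3% of the others (difference -8.06 points, -15.5 to -0.627). Introns held 67 (32.7%) against 35.8% (interval of the difference -9.90 to 4.12). Another 8 lay at a transcript end (3.90 against 1.86%) and 4 in exons (1.95 against 0.78%), and both intervals of the difference included 0. The median distance to the nearest protein-coding start was 13236 bp (95% interval of the median 9145 to 19303) for the cofactor-free sites. For the other sites it was 22909 bp (19770 to 25750), and these intervals did not overlap. A start lay within 5 kb of 31.7% of cofactor-free and 18.8% of other sites.

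**Figure D2:**
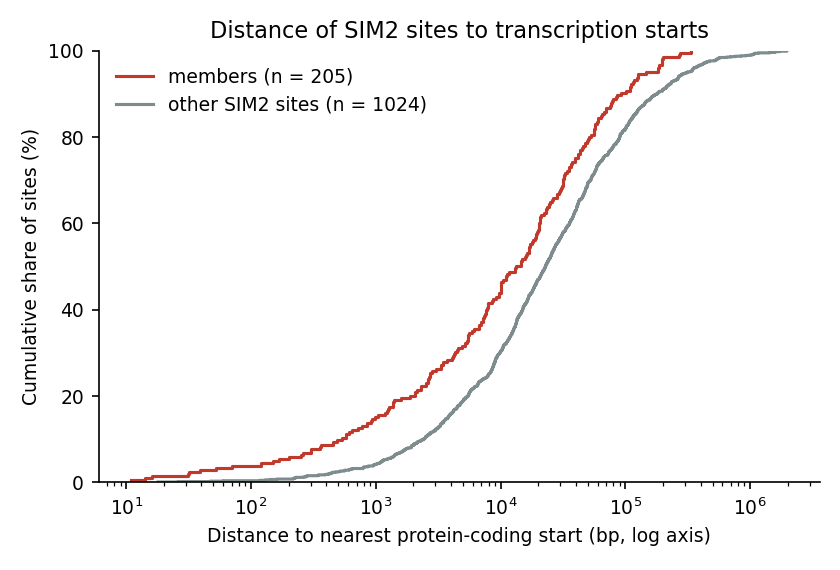
Cumulative share of sites (%) by distance to the nearest start of a protein-coding gene (bp, log axis) for the 205 sites without cofactor peaks (members, red) and the 1024 other SIM2 sites (grey). The red curve lies to the left, with 31.7% against 18.8% within 5 kb.

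The 23 promoter sites belonged to genes of varied roles. By A6 tag count they were led by Zfp7 (24.9) and Rgs3 (23.2), followed by the ephrin receptor gene Epha10 (18.9), the protocadherin gene Pcdh17 (18), the ion channel gene Trpm3 (17.6), the semaphorin gene Sema4a (17.2) and Ankrd6 (17.2). Epha10 had 2.7 in B8, a tag count among the lowest there, and 5.1 in C4. The promoter sites of Zfp3, Ripk3, Triobp, Acp5, Plod3, Gne, Ncan, Polr3g and Slc25a18 had A6 tag counts between 16.7 and 10.3. Ncan encodes neurocan, a proteoglycan of the brain matrix, and its site lay 39 bp upstream of the start. The remaining ones, at 9.9 to 8.6, were at Cyp4f13, Fam55b, Zfp532, Cnbp, Car3, Tead1 and Rgs22. Tead1 encodes a Hippo pathway transcription factor, and its site was 14 bp from the start. Zfp7, Rgs3, Epha10, Pcdh17, Trpm3, Ankrd6 and Triobp were the 7 with a peak in all 3 clones.

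The bHLH-PAS core ACGTG was more frequent at cofactor-free sites. In the 200 bp around the centre it was found on either strand in 46 of 205 (22.4%, interval 17.3 to 28.6%), in 12.4% of other SIM2 sites and in 14.1% of all SIM2 sites. The difference was 10.04 percentage points (4.43 to 16.5). Sites with NANOG alone held it in 14.9% (interval 11.6 to 19.0%). Among sites of all 3 clones the shares were 23.5 and 15.1%, where the interval of the difference included 0 (-3.47 to 25.3). Windows 10 kb to each side of the cofactor-free sites held it in 12.0%, and NANOG peaks without SIM2 in 5.07%. Sites outside promoters gave nearly the same shares, 22.5% and 12.6%. One or both of ACGTG and GCGTG were present in 85 cofactor-free sites (41.5%) and in 21.8% of the others (difference 19.7 points, 12.6 to 26.9). A motif of the octamer, SOX, ESRRB or KLF kind was in 28.8 and 39.0% (difference -10.2 points, -16.7 to -3.01). Neither kind was found in 85 cofactor-free sites (41.5%) and in 47.2% of the others (interval of the difference -12.9 to 1.78).

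Composition moved with this difference. The median GC content of the 200 bp was 52.5% at cofactor-free sites, 47.0% at the others and 46.5% in the windows 10 kb away, with a median of 3, 2 and 2 CpG. The EB3 peaks had 51.5% and 4 CpG. The part of composition in the motif shares was not tested.

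By position, ACGTG fell within the 50 bp upstream of the centre in 10.2% of cofactor-free sites and in the 50 bp downstream in 7.80%, while the bins beyond 50 bp ranged from 1.95 to 4.88%. At the other sites these central bins held 3.91 and 4.69% and those beyond 1.17 to 2.73%, so both groups had their highest shares beside the centre.

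Some longer or related forms, of which CGTGAC as well as GCGTG and also ATGCAAA were chosen after the k-mers of these sites had been seen, are given as descriptions. GCGTG was found in 24.9% of cofactor-free sites, 11.0% of others, 11.0% of the windows 10 kb away and 14.8% of the EB3 peaks (interval 8.68 to 24.1%, against 19.5 to 31.2% at the cofactor-free sites). CGTGAC, the core followed by AC and overlapping ACGTG in part, was found in 28 cofactor-free sites (13.7%), in 4.98% of others and in 2.20% of those windows. Only 1 of the 28 was at a promoter, whereas GCGTG was in 11 of the 23 promoter sites. The CME itself was rare, in 9 cofactor-free sites (4.39%) and 3.32% of the others, with a difference of 1.07 points (-1.36 to 4.93). Of these 9 sites, the one in an intron of Ddc, the gene of an enzyme of dopamine synthesis, had its match outside the central 100 bp and is not printed above.

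**Figure D3:**
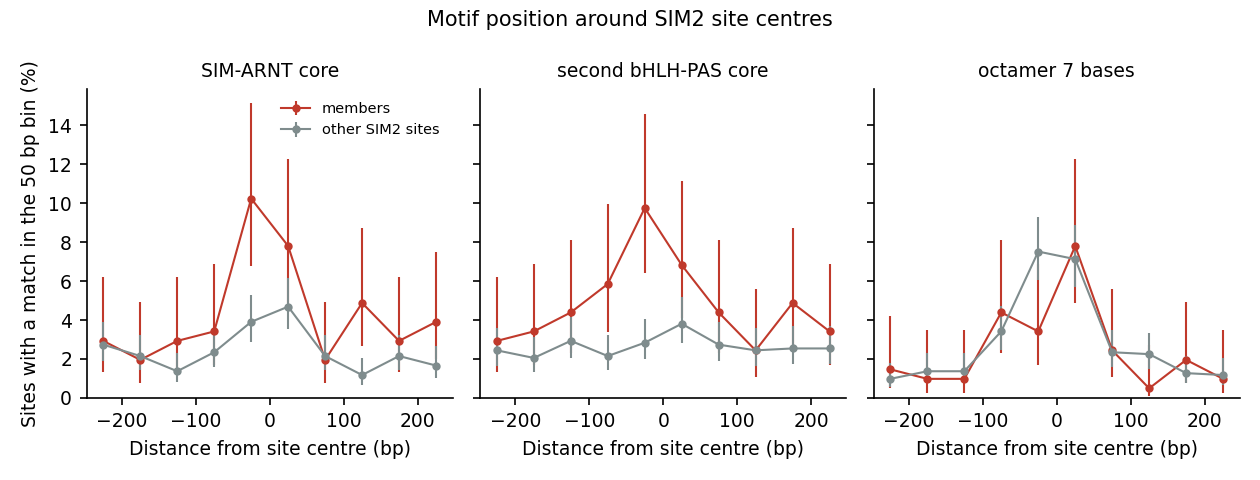
Share of sites (%) with a motif match in each 50 bp bin by distance from the site centre (bp), for the core ACGTG (SIM-ARNT core), GCGTG (second bHLH-PAS core) and ATGCAAA (octamer 7 bases), with 95% Wilson intervals; members (red) are the sites without cofactor peaks. ACGTG reaches 10.2% of members beside the centre. The octamer form is highest in the 50 bp downstream of the centre in members (7.80%), with 3.41% in the 50 bp upstream. At the other sites it is highest in both central bins (7.52 and 7.13%).

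Octamer sequence was not absent from sites without an OCT4 peak. The full octamer ATGCAAAT occurred in 9 cofactor-free sites (4.39%, interval 2.33 to 8.13%), in 8.01% of the others and in 7.40% of all SIM2 sites, a difference of -3.62 points (-6.37 to 0.42). Sites with NANOG alone, which also lack an OCT4 peak, held it in 4.70%, and the windows 10 kb from the cofactor-free sites in 0.98%. Its first 7 bases, ATGCAAA, were found in 36 cofactor-free sites (17.6%) and in 18.8% of the others, with an interval of the difference of -6.53 to 4.94, and in 2.68% of those windows. They were present, for example, in the promoter sites of Sema4a and Acp5 and in the site in Fos, the gene of an AP-1 subunit.

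The SOX and ESRRB motifs were scarcer than at the pooled sites with cofactors. The SOX motif CATTGTT was found in 2.93% of cofactor-free and 8.20% of other sites, a difference of -5.28 points (-7.70 to -1.63), and in 3.66% of the windows 10 kb away. Sites with NANOG alone held it in 5.52% (interval 3.60 to 8.38%), which overlaps the interval of the cofactor-free sites (1.35 to 6.24%). The ESRRB motif AAGGTCA was found in 7.32% of cofactor-free and 12.9% of other sites, a difference of -5.57 points (-9.16 to -0.77), yet in only 1.46% of those windows. Of the sites with NANOG alone 16.0% held it. The KLF motif CCACACCC did not differ detectably, with 3.90 and 3.91% (interval of the difference -2.36 to 3.75). A second motif which the study derived from the SIM2 sites, searched by its consensus, was in 14.1% of cofactor-free and 10.7% of other sites (interval of the difference -1.19 to 9.11). It was in 1.95% of the windows, but the study chose it on these libraries and it is no independent evidence.

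Motifs of some general or signal-responsive factors had intervals of the difference above 0, each on few sites. They were TGACTCA of AP-1 (7.32 against 3.91%), CCAATCA of NFY (4.88 against 1.76%), CCGGAAG of ETS factors (4.88 against 2.15%) and GCGCATGCG of NRF1 (0.98 against 0.10%, or 2 sites and 1 site). Intervals of the difference included 0 for CATTCC of TEAD (16.1 against 18.9%), CACGTG (2.93 against 2.05%), TTCCNGGAA of STAT (1.46 against 1.66%), AGATAA of GATA factors (9.27 against 9.28%), AAGATGGCG of YY1 and the CTCF consensus (1 site each, none of the others). With 21 motifs compared and unadjusted intervals, some may lie off 0 by counting error alone. TTCAGCACC, part of the RE1 element bound by the repressor REST, was in 1 cofactor-free site (0.49%). No EB3 peak lay within 10 kb of any SIM2 site, cofactor-free or other. The selection partly sets this result, because it had discarded every SIM2 site that coincided with a control peak. It is therefore no separate test of specificity. With that filter off, 208 sites were cofactor-free instead of 205, while the others stayed at 1024. Every site that the filter discarded thus lacked a cofactor peak.

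**Figure D4:**
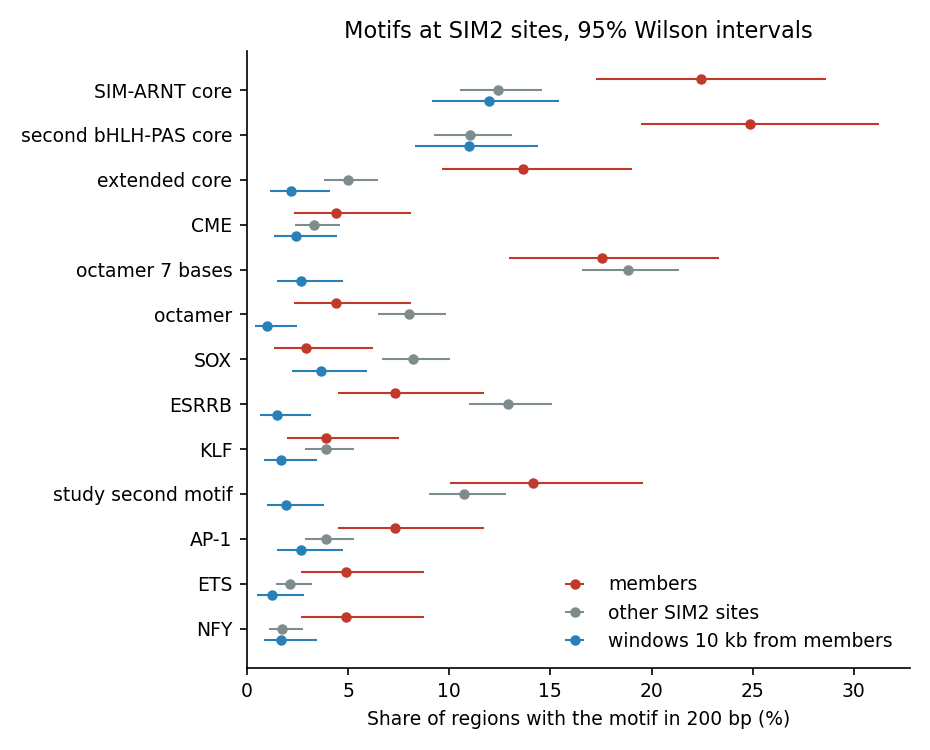
Share of regions (%) with each motif in 200 bp, with 95% Wilson intervals, for the 205 sites without cofactor peaks (members, red), the 1024 other SIM2 sites (grey) and 410 windows 10 kb from the members (blue). The SIM-ARNT core is found in 22.4% of members and 12.4% of other sites, and the octamer without its last base in 17.6 and 18.8%.

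Sites found in a single clone, which were not used to choose the 205, allowed the comparison in separate peaks of each clone and were added after the data had been seen. Cofactor peaks came from A6 for all 3 clones, so the cofactor state of B8 and C4 sites was not measured in their own clone. The 3 differences are therefore not replicates of 1 comparison, and their mean does not test the A6 result. In A6, 337 of 1161 single-clone sites had no cofactor peak, and 10.7% of them were at promoters against 4.49% of those with one (difference 6.19 points, 2.89 to 10.1). ACGTG was in 21.4 against 6.80% (difference 14.6 points, 10.1 to 19.5). In B8 the promoter shares were 2.29 and 3.73% and those of ACGTG 9.84 and 7.27%, and both intervals of the difference included 0. In C4 they were 1.51 and 6.67% for promoters and 3.02 and 6.67% for ACGTG, again with intervals including 0. GCGTG was more frequent without cofactors in A6 (21.4 against 11.4%, difference 9.96 points, 5.28 to 15.0). It was less frequent without them in B8 (3.204 against 8.45%, difference -5.24 points, -8.27 to -2.26) and in C4 (0.50 against 13.3%, difference -12.8 points, -29.2 to -4.49), the opposite direction to the sites of 2 or 3 clones. ATGCAAA was less frequent without cofactors in B8 (9.84 against 15.5%, difference -5.68 points, -9.88 to -1.41), and its intervals included 0 in A6 and C4. The mean difference over the 3 clones was -0.14 ± 5.79 points for promoters, 4.50 ± 9.26 for ACGTG and -2.71 ± 11.6 for GCGTG (SD, n = 3), with two-sided exact sign-flip permutation p = 1, p = 0.75 and p = 0.75, where the smallest p that 3 clones allow is 0.25. No conclusion is drawn from these p-values, because the clones are not replicates in this comparison. Single-clone sites without cofactors also differed in base composition, the median GC content being 51% for A6, 35% for B8 and 29.5% for C4. Of the single-clone sites, 29.3% in C4 and 9.51% in B8 lay at 70 to 110 Mb of chromosome 14, and 2.07% in A6. The part of these in the result was not tested.

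**Figure D5:**
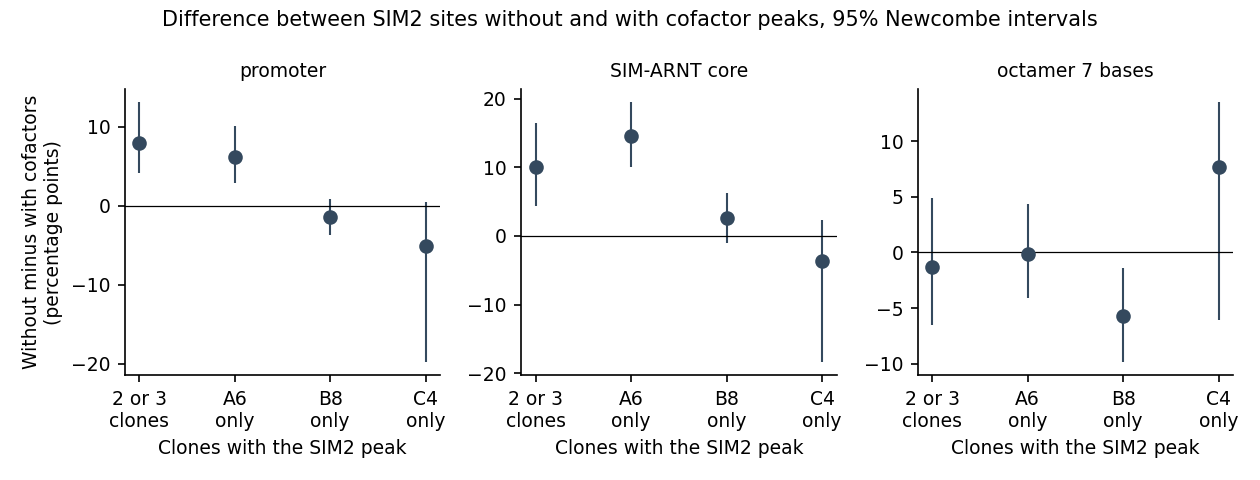
Difference (percentage points, with 95% Newcombe intervals) between SIM2 sites without and with cofactor peaks in the share at promoters, with ACGTG (SIM-ARNT core) and with ATGCAAA (octamer 7 bases), for the sites of 2 or 3 clones and for sites of A6, B8 or C4 alone. The promoter and core differences are above 0 for the sites of 2 or 3 clones and for A6 alone, and include 0 for B8 and C4 alone. Cofactor peaks are those of A6 throughout.

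Absence of a cofactor peak within 100 bp did not mean that none was close. A peak of any of the 4 factors lay within 500 bp of 26 cofactor-free sites, within 1 kb of 41, within 10 kb of 86 and within 50 kb of 145. The neighbour was mostly NANOG, the longest list, with 38 sites within 1 kb, against 16 for OCT4, 12 for MED12 and 6 for MED1. The median gap was 19921 bp, and 60 sites had no cofactor peak within 50 kb. Just outside the limit were the sites nearest to Ppp1r9a (101 bp), Sall3 (111 bp), Cdk6 (126 bp), Ppap2a (146 bp) and Gm10116 (165 bp). Just inside it were sites with cofactors nearest to Prim2 (98 bp), Dapk1 (93 bp), AI427809 (91 bp), Hs3st4 (82 bp) and Rpl7l1 (74 bp), all to a NANOG peak.

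A cofactor-free site lay 110429 bp downstream of the start of Sox2, in the distal enhancer cluster known as the Sox2 control region. It was called in A6 (17.2) and C4 (5.9) but not in B8, held the CME and the ESRRB motif printed above, and had a cofactor peak 624 bp away. Otx2, a homeobox gene of the forebrain and of the exit from naive pluripotency, had a site 6739 bp downstream of a start with 10.7 in A6 and 4.8 in B8, and a cofactor peak 420 bp away.

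Upregulated genes were near the cofactor-free sites more often than near the others. The study's lists of genes higher (299, leaving out the Sim2 transgene) or lower (230) in the clones A6, B8 and C4 than in EB3, called upregulated and downregulated here, were used for membership only. A start of an upregulated gene lay within 100 kb of 26 of 205 cofactor-free sites (12.7%, interval 8.80 to 17.9%), of 6.15% of the others and of 7.24% of all SIM2 sites, a difference of 6.53 points (2.32 to 11.9). Cofactor-free sites also had more genes of any kind around them, with a protein-coding start within 100 kb of 90.2 against 81.9%. Among the 655 protein-coding genes near a cofactor-free site 31 were upregulated (4.73%), among the 2223 near another SIM2 site 3.10%, and among all protein-coding genes 1.30%. Counted over genes, with any annotated start, the difference between the first 2 shares was 1.63 points (0.03 to 3.64). Against the sites with NANOG alone, of which 8.56% had an upregulated gene within 100 kb, the interval of the difference included 0 (-0.996 to 9.92). Within 20 kb the shares of sites were 3.90 and 1.76%.

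For downregulated genes a difference was not detectable with these numbers of sites. A start of one lay within 100 kb of 9 cofactor-free sites (4.39%), of 2.44% of the others and of 2.77% of all SIM2 sites (interval of the difference -0.41 to 5.77). Among the genes near a cofactor-free site 1.07% were on this list, among those near another site 1.08% and among all 0.93%.

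The closest upregulated gene was Ripk3, the kinase of necroptosis, whose promoter site 70 bp from the start held CACGTG and GCGTG and had 15.9 in A6 and 4.8 in B8. Bhlhe40, a bHLH repressor of the clock and hypoxia responses, had a site in all 3 clones 1894 bp upstream with 16.3, 6.1 and 5.1. An exonic site lay in Adcy6, an adenylyl cyclase gene, 7211 bp from its start, and the others within 11 kb were near 6430527G18Rik, Parvb, Spsb4, Nkx6-3 and Cln6. The Nkx6-3 site was 1 of the 2 that A6 lacked, with 10.9 in B8 and 4.4 in C4, 10066 bp downstream of the start of this homeobox gene. The intronic site of Jdp2, a bZIP repressor gene, was 20209 bp downstream of its nearest start with 11.6 and 4.1, and that of Grik3, a kainate receptor gene, had 18 and 4.1. The promoter sites of Triobp and Car3 were also 21016 bp from upregulated Lgals1 and 23459 bp from downregulated Car2. Otx2 and Car2 were the 2 downregulated genes among the 15 changed genes nearest to a cofactor-free site, which also took in AI854517 and Ppap2a.

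Chromatin contacts did not differ detectably between the cofactor-free and the other sites. By the study's list of ChIA-PET links, made from published RNA polymerase II contacts in mouse ES cells and used for membership only, 40 cofactor-free sites (19.5%) were linked to a gene, against 16.2% of the others and 16.8% of all SIM2 sites (interval of the difference -2.10 to 9.64). Of the sites with NANOG alone 11.9% were linked, which was lower by an interval that excluded 0 (difference 7.63 points, 1.51 to 14.3). The 40 sites were linked to 79 genes, and 38 of the 40 had a link within their chromosome. Among them, the site downstream of Sox2 was linked to Sox2, Sox2ot and Txnip. Links to changed genes were found for 7 sites. They joined the Ppap2a, Fnbp1 and Jdp2 sites to these same genes, all upregulated, and the site 14621 bp upstream of Smcr7l to upregulated Syngr1, a synaptic vesicle gene. The Otx2 site was linked to Otx2 and Tgds, both downregulated, and both sites near Zfp532 to Cat, the catalase gene, on another chromosome.

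Each gene list held 1 gene with a cofactor-free site within 100 kb, so its share was near that of all genes. Over all 22225 protein-coding genes, 655 (2.95%) had a cofactor-free site and 2223 another SIM2 site within 100 kb. Of 29 pluripotency genes found in the annotation, Id3 had one within 100 kb of its start (3.45%), 32485 bp away in an intron of E2f2, and 16 had another SIM2 site. Sox2, also on this list, was the nearest start to a cofactor-free site, but at 110429 bp it lay beyond 100 kb. Of 44 neural development genes Otx2 had one (2.27%), and 8 had another SIM2 site. Ncoa3, a nuclear receptor coactivator, was the 1 of 19 bHLH-PAS genes, with 2 near another SIM2 site, and Egln3, an oxygen-sensing prolyl hydroxylase, the 1 of 20 hypoxia genes, with 3 near another.

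Cofactor-free sites were spread over chromosomes 1 to 19, with none on X, where 9 other SIM2 sites lay. Chromosome 15 held 19 of them (9.27%) and 4.20% of the others (difference 5.07 points, 1.52 to 9.94), and chromosome 19 held 1. No 2 cofactor-free sites lay within 2 kb of each other, though 16 had another SIM2 site, with cofactors, that close. They were 7.80% of the cofactor-free sites (interval 4.86 to 12.3%), and 5.08% of the other sites (3.89 to 6.60%) had a SIM2 neighbour that close.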

How the data were processed

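The authors mapped ChIP-seq reads to mm9 with BWA and called peaks per library against its input with HOMER, per the labels and methods; versions are not given in the sources used here. The 8 deposited lists give for each peak a normalized tag count, a signal the authors scaled to library size, the focus ratio, a fraction, and the score of the authors' peak caller. Total tags are deposited as whole counts in 5 lists. The authors' HOMER also gave the fold over input, a ratio, and its p-value.

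The sites were chosen with earlier results of these data known, as were the gene lists, motifs and named sites: the 10 strongest sites in all 3 clones, promoter sites (23 qualified), sites linked to a changed gene, the 15 nearest changed genes, CME sites, and 5 sites on each side of the limit. Genes came from GENCODE vM1 on NCBIM37, the assembly of mm9, counting all transcripts of protein-coding genes, and motifs were exact patterns in 200 bp. Shares carry 95% Wilson and differences 95% Newcombe intervals. Means of the single-clone differences were tested by exact permutation, although the clones are not replicates there. Alternatives covered merging, thresholds, windows, filters and leaving out each clone. Python 3.11.15, numpy 2.4.6, pandas 2.3.3, scipy 1.17.1 and pysam 0.24.0 were used. The steps were tested on simulated data, where all 72 planted members were found. The study's table columns with its own fold changes and p-values were not used.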

Additional observations from a re-analysis of the deposited data

Results flagged for a closer look

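The FLAG peaks of the EB3 line, which carries no tagged SIM2, were used only to remove sites, and 1 sequence feature in them was above its level elsewhere. TTCAGCACC, part of the RE1 element of the repressor REST, was found in 28 of 81 EB3 peaks (34.6%, interval 25.1 to 45.4%), in 0.49% of the cofactor-free SIM2 sites in 0.29% of the other SIM2 sites and in 0.17% of NANOG peaks without SIM2. Of the bHLH-PAS cores, ACGTG was in 8.64% of the EB3 peaks, GCGTG in 14.8% (interval 8.68 to 24.1%), above the 11.0% of the other SIM2 sites, and CGTGAC in 0 of 81 (interval up to 4.53%).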

How the results depend on the processing

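Of 204 recomputed values, 158 stayed close to the reported value, for shares within its interval, and 46 moved more. The number of cofactor-free sites followed the thresholds: 19 (7.28% of SIM2 sites) with SIM2 peaks at least 8 times the input, 401 (32.6%) with cofactor peaks at least 8 times the input, 34 (9.83%) in all 3 clones, and 20.2, 14.6 and 13.3% with cofactor windows of 0, 500 and 1000 bp. In the 19 sites 31.6% were in all 3 clones, against 26.0% of the other sites at that setting. This was the opposite order to the reported 16.6 and 30.5%. ACGTG was in 47.4% (others 17.4%), and 26.3% had a ChIA-PET link (others 16.5%). The octamer was in 0% (others 8.26%), and 0% lay near a downregulated gene (others 2.48%). The tag percentiles were 35.1 in A6 (others 51.5) and 33.4 in B8 (others 46.6). In the 34 sites 20.6% were at promoters (others 1.60%) and 0% were near a downregulated gene (others 1.60%). Their median distance to a start was 8509 bp (others 22142.5 bp) and their B8 percentile 30.9 (others 48.7). With the stricter cofactor peaks the GC content was 50.5% (others 46%).

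A 500 bp sequence window gave ACGTG in 33.2% (others 20.6%) and a GC content of 50.6% (others 46%). A 20 kb window put upregulated genes near 3.90% of cofactor-free and 1.76% of other sites. Downregulated genes were then near 0.49 and 0.59%, and counting the nearest start alone gave 0.98 and 1.17% for them. For downregulated genes this was the opposite order to the reported 4.39 and 2.44%. Merging within 50 bp gave a B8 percentile of 34.3, merging within 200 bp a C4 percentile of 49.3, and no EB3 filter a C4 percentile of 48.4. The following were chosen after seeing the data: CGTGAC (13.7%), ACGTG or GCGTG (41.5%), the first 7 octamer bases (17.6%), and the single-clone sites of B8 (promoters 2.29%, ACGTG 9.84%) and C4 (1.51 and 3.02%), where the promoter share no longer exceeded that of sites with cofactors.

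Leaving out 1 clone at a time gave 35 to 196 sites (9.89 to 16.8% of SIM2 sites), and the lower counts were those without A6 (35) and without B8 (40). Promoter shares were 10.7 to 20% (others 1.45 to 3.40%), with 20% without A6 and without B8. Shares near upregulated genes were 12.8 to 20% (others 6.07 to 8.15%). Those near downregulated genes were 0 to 4.59% (others 1.45 to 2.57%). The median distance to a start was 6168 to 14552 bp (others 21916 to 22906.5 bp), the shortest without B8. The shares with ACGTG were 22.4 to 27.5% (others 12.4 to 14.8%). The share in all 3 clones is fixed when only 3-clone sites are used and has no value with 1 clone left out. No paired analysis was possible because the comparisons are between sites and not between groups of samples. The differences over single-clone sites were already taken within the SIM2 list of each clone, with cofactor peaks from A6. With 1 library per clone and cofactor libraries from A6 alone, peak calling depth limits which sites count as cofactor-free.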
